A study of Mus musculus with 12 samples.

Results

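The core circadian clock was examined as 10 genes, Arntl, Clock, Npas2, Per1, Per2, Per3, Cry1, Cry2, Nr1d1 and Nr1d2, which were taken by gene symbol from a deposited expression table of 22899 genes. All 10 were found, and all 10 are among the 17738 genes that hold values. The table comes from RNA sequencing of 12 libraries labelled kidney, 1 from each of 12 Kunming mice recorded as female, 6 to 8 weeks old and weighing 18 to 22 g, with 3 mice in each of 4 groups. The control group received saline. The 7-HC group received 7-hydroxycoumarin, a plant phenol, at 50 mg/kg/day in 5% DMSO. The colistin group received colistin, a polymyxin antibiotic, at 15 mg/kg/day in saline. The colistin + 7-HC group received both at these doses, with 7-HC injected 2 h before colistin. Mice were dosed for 7 days under 12 h of light and 12 h of dark, and were killed 12 h after the last injection. The hour of the day at which each mouse was killed is not given in the sources used here, so group and sampling hour cannot be told apart, and all values are therefore given per library. Likewise, 7-HC and its DMSO vehicle cannot be told apart.

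In mammalian cells the clock is a transcriptional feedback loop. BMAL1, the product of Arntl, pairs with CLOCK or NPAS2 at E-box elements and activates the Per, Cry, Nr1d1 and Nr1d2 genes, and the PER and CRY proteins then return to the nucleus and inhibit that pair. In a linked loop, REV-ERB alpha and beta, encoded by Nr1d1 and Nr1d2, repress Arntl at RORE elements on which the ROR receptors activate it, so that in mouse liver and kidney Arntl is highest near the time of day at which Nr1d1 is lowest. The D-box factors DBP, TEF and HLF are driven by the same E-boxes and act on output genes and on Per genes.

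Elements through which the loop is known to act were searched in the promoters of these genes. RefSeq promoters (GRCm38.p6, 250 bases before to 50 after the transcript start) were matched for 9 of the 10 genes, and the 4 sequences in which a searched element other than the E-box-like one was found are shown here, with the matched letters in capitals and all sequences read 5′ to 3′ on the strand of the gene. They are the second Arntl promoter (chr7:113207261-113207560, plus strand), the first Per1 promoter (chr11:69098699-69098998, plus strand), the Per3 promoter (chr4:151044616-151044915, minus strand) and the Cry1 promoter (chr10:85185005-85185304, minus strand).
Arntl: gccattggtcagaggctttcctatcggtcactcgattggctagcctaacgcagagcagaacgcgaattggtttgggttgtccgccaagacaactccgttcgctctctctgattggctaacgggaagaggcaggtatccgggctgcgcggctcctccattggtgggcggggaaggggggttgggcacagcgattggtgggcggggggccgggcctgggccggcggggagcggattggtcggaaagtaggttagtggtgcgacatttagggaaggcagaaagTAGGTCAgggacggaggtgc
Per1: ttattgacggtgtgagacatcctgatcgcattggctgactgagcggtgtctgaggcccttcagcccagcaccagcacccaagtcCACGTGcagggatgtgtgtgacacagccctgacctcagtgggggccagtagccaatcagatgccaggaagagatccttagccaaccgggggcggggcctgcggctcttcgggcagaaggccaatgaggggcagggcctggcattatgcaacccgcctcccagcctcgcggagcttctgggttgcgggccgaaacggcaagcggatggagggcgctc
Per3: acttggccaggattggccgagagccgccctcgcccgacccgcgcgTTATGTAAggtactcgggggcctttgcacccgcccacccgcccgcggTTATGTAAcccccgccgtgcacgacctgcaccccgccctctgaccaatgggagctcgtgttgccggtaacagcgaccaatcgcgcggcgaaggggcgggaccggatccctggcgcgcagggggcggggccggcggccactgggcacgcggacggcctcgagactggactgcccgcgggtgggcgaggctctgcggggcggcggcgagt
Cry1: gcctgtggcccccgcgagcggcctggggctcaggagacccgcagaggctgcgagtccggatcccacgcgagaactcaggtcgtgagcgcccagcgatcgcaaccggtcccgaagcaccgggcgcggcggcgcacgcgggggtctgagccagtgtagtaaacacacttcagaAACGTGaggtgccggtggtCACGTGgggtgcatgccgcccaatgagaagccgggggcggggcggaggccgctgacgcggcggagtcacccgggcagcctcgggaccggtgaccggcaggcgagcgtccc
The E-box CACGTG was found in Per1, beginning 166 bases before the start, and in Cry1, 60 bases before it. The E-box-like letters CACGTT, which read AACGTG on the other strand, were found in Cry1 79 bases before the start, in Cry2 166 bases before it and in Nr1d1 28 bases before it. The RORE core TAGGTCA, searched together with TGGGTCA, was found in Arntl alone of the 9 genes, 31 bases after the start. The D-box TTATGTAA, searched together with TTACGTAA, was found in Per3 alone, at 205 and 158 bases before the start, and the CRE letters TGACGTCA were found in none of the 9 matched genes. All searches covered both strands, and no matches in these genes overlapped each other. Of 27025 genes with RefSeq promoters of the same length, 8.09% held the E-box, 5.44% the E-box-like letters, 7.35% the RORE core, 1.23% the D-box and 2.03% the CRE. A gene was counted if any of its promoters held the letters. These matches are letters in a window and were not measured as binding.

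The values were taken as FPKM, fragments per kilobase of transcript scaled to the mapped reads of the library, which the authors estimated with RSEM and which are corrected for gene length. Per library they sum to between 517984 and 597354, and between 10036 and 10392 genes are at 1 FPKM or more. Differences were tested with limma on log2(FPKM + 0.5) for the 10764 genes that reached 1 FPKM in 3 libraries or more, with Benjamini-Hochberg adjustment over all of them. Rose and fell are used of genes whose adjusted p was under 0.05. Because 0.5 is added, the log2 fold change of a weakly expressed gene understates the ratio of its means. The labelled tissue was checked against marker genes. Of 15 nephron and glomerulus markers, 9 had values, which together summed to 0.12 to 0.45 FPKM in every library, and Kap, Slc5a2, Slc12a1, Aqp2 and Pax2 were among those that held none. By contrast, 10 of 10 hepatocyte markers were tested and summed to between 47730 and 98485 FPKM. The marker genes therefore go against the label, and the libraries are called by their groups. Transcripts of 4 Y-linked genes summed to 25.1 to 38.8 FPKM in all 12 libraries, although the mice are recorded as female.

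Compared to the control group, the clock transcripts of the colistin group were lower for most members and higher for Arntl and Clock. In the comparison of colistin with control, Clock rose and Per2, Per3, Cry2, Nr1d1 and Nr1d2 fell, which is 6 of the 8 members that were tested. Of all genes tested, 32.7% were called in this comparison, 12.7% higher and 19.9% lower. This excess of lower calls depended on the scaling, since 38.9% of the calls were higher here and 48.5% after median-ratio scaling, which changed no call of a member. The median log2 fold change of the 8 members was -0.82, and that of all genes tested was -0.07. Arntl and Npas2 did not pass the filter on low values, so the counts above leave them out. In a tissue with several cell types, fewer cells of a type and less RNA per cell cannot be told apart.

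**Figure D1:**
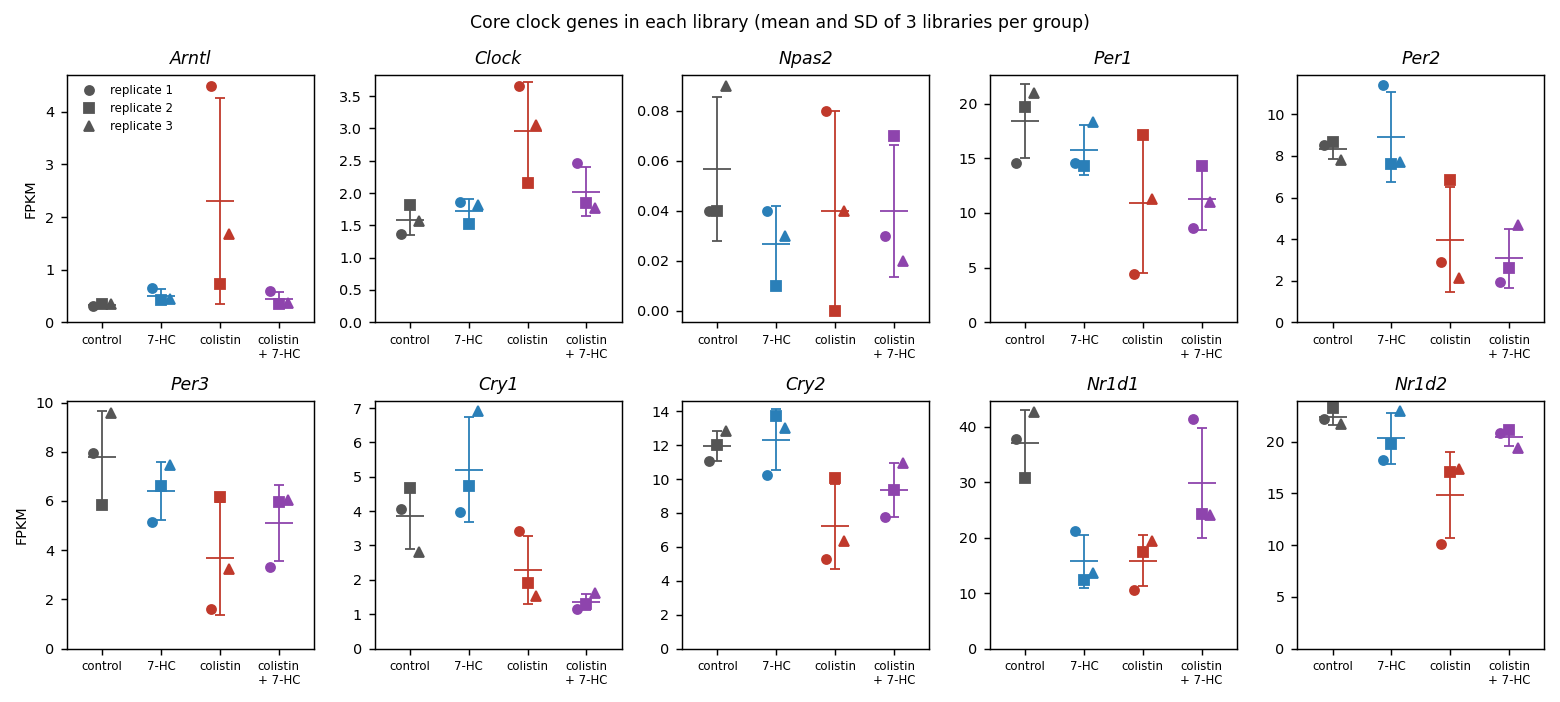
FPKM of the 10 core clock genes in each of the 12 libraries, 1 panel per gene with its own linear axis, grouped by treatment. Symbols mark replicates 1 to 3, horizontal lines the group means and bars the SD of 3 libraries; the colistin libraries are spread widely, with Arntl between 0.73 and 4.50 FPKM and Per1 between 4.39 and 17.10 FPKM.

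Arntl (chr7:113178471-113314126, plus strand) encodes BMAL1, the component of the activator without which the loop stops. Its values were 0.30, 0.35 and 0.35 FPKM in control libraries 1, 2 and 3 and 0.65, 0.42 and 0.45 FPKM in the 7-HC libraries. In the colistin libraries they were 4.50, 0.73 and 1.67 FPKM, and in the colistin + 7-HC libraries 0.59, 0.34 and 0.37 FPKM. Every colistin library thus lay above every library of the other groups, while the spread within the colistin group, 2.30 ± 1.96 FPKM (SD, n = 3), was far larger than in control, 0.333 ± 0.0289 FPKM. The mean of the colistin libraries was 6.9-fold that of control, and 3.6-fold when colistin replicate 1 was left out. On the log2(FPKM + 0.5) scale the difference was 1.51, and an exact two-sided permutation test of 3 against 3 libraries gave p = 0.1, the smallest value this design allows. Arntl reached 1 FPKM in only 2 libraries and was therefore not tested in the fit across genes. In the fit without the filter, limma gave an adjusted p of 0.0197 for this difference. Between colistin + 7-HC and colistin the difference was -1.36, with an adjusted p of 0.287 in the same fit. By group mean, the order from highest to lowest was colistin, 7-HC (0.507 ± 0.125 FPKM), colistin + 7-HC (0.433 ± 0.137 FPKM) and control. Neighbours among the last 3 overlapped, 7-HC with colistin + 7-HC and colistin + 7-HC with control, while the 7-HC libraries lay above control without overlap.

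Clock (chr5:76209868-76305603, minus strand) encodes the partner of BMAL1. In control libraries 1, 2 and 3 it was at 1.36, 1.82 and 1.57 FPKM, and in the 7-HC libraries at 1.86, 1.52 and 1.81 FPKM. In the colistin libraries it was at 3.66, 2.15 and 3.06 FPKM, and in the colistin + 7-HC libraries at 2.46, 1.84 and 1.77 FPKM. The colistin libraries did not overlap with control, and library 1 was again the highest. Clock rose by 0.71 (SE 0.18) on the log2 scale in colistin against control (limma, adjusted p = 0.00969). It was 0.44 lower on the same scale in colistin + 7-HC than in colistin, but the groups overlapped and the adjusted p was 0.341. Npas2 (chr1:39193702-39363240, plus strand), which encodes an alternative partner of BMAL1, was at or below 0.09 FPKM in all 12 libraries and was listed at 0 in colistin replicate 2, and no fold change is given for it. Npas2 also enters the distances from control and a relation below, where this low level is a limit.

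The Period genes encode the PER proteins, which carry the CRY proteins into the repressor complex. Per1 (chr11:69095108-69109965, plus strand) was at 14.56, 19.69 and 20.96 FPKM in control libraries 1, 2 and 3 and at 14.54, 14.33 and 18.36 FPKM in the 7-HC libraries. It was at 4.39, 17.10 and 11.24 FPKM in the colistin libraries and at 8.58, 14.33 and 11.03 FPKM in the colistin + 7-HC libraries. Colistin replicate 2 lay inside the control range and colistin replicate 1 far below it. Relative to control, the log2 fold change in the colistin group was -0.90 (SE 0.37), with an adjusted p of 0.0858 by limma. Without colistin replicate 2 it was -1.30 and the adjusted p was 0.0104, and Per1 would then count as fallen, whereas without colistin replicate 1 it was only -0.38. The colistin + 7-HC libraries all lay below control, at a log2 fold change of -0.69 and an adjusted p of 0.197. That p was 0.0384 when colistin replicate 1, which is in neither group but adds to the shared estimate of the spread, was left out.

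Per2 (chr1:91415977-91459351, minus strand) was the member of its family that fell both with and without 7-HC. It was at 8.51, 8.69 and 7.81 FPKM in control libraries 1, 2 and 3 and at 11.42, 7.59 and 7.72 FPKM in the 7-HC libraries. In the colistin libraries it was at 2.91, 6.84 and 2.15 FPKM, and in the colistin + 7-HC libraries at 1.92, 2.63 and 4.67 FPKM. All 6 libraries of mice given colistin lay below all 6 of mice not given it. By limma, Per2 fell by 1.12 (SE 0.35) on the log2 scale in colistin against control (adjusted p = 0.0295), by 1.45 (SE 0.35) in colistin + 7-HC against 7-HC (adjusted p = 0.00963) and by 1.38 (SE 0.35) in colistin + 7-HC against control (adjusted p = 0.0146). The first of these calls was the least stable. Its adjusted p was 0.0727, 0.0743 or 0.0577 without control replicate 1, 2 or 3, 0.0982 without colistin replicate 1 and 0.113 without colistin replicate 3, with log2 fold changes between -0.82 and -1.17. In colistin + 7-HC against control, the adjusted p was 0.0597 without colistin + 7-HC replicate 1 (log2 fold change -1.13) and 0.0513 without replicate 2 (-1.32).

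Per3 (chr4:150997018-151044707, minus strand), whose product is the least needed of the PER proteins for the rhythm itself in mice, was at 7.96, 5.83 and 9.56 FPKM in control libraries 1, 2 and 3 and at 5.13, 6.61 and 7.46 FPKM in the 7-HC libraries. Its values were 1.61, 6.16 and 3.24 FPKM in the colistin libraries and 3.32, 5.96 and 6.05 FPKM in the colistin + 7-HC libraries. Colistin replicate 2 overlapped with control, and colistin replicate 1 was the lowest of the 12. Per3 fell by 1.12 (SE 0.36) on the log2 scale in colistin against control (limma, adjusted p = 0.0338), and its log2 fold change in colistin + 7-HC against 7-HC was -0.33 (adjusted p = 0.523). The call in colistin against control was lost without control replicate 1 (-1.09, adjusted p = 0.0840), control replicate 3 (-0.97, 0.106), colistin replicate 1 (-0.71, 0.128) or colistin replicate 3 (-1.12, 0.0764).

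The cryptochromes are the repressors that bind the CLOCK and BMAL1 pair directly, and the data for the pair of genes differed. Cry1 (chr10:85131700-85185054, minus strand) was at 4.07, 4.66 and 2.80 FPKM in control libraries 1, 2 and 3 and at 3.98, 4.73 and 6.92 FPKM in the 7-HC libraries. It was at 3.41, 1.91 and 1.53 FPKM in the colistin libraries and at 1.16, 1.29 and 1.62 FPKM in the colistin + 7-HC libraries. The lowest group mean was thus that of the combined treatment, 1.36 ± 0.237 FPKM. Cry1 fell by 1.60 (SE 0.26) on the log2 scale in colistin + 7-HC against 7-HC (limma, adjusted p = 0.00111) and by 1.21 (SE 0.26) in colistin + 7-HC against control (adjusted p = 0.00646), with no overlap in either. In colistin against control its log2 fold change was -0.67 (SE 0.26), with an adjusted p of 0.0692. In this last comparison colistin replicate 1 lay inside the control range, unlike for the Period genes. Without it the log2 fold change was -0.95 (adjusted p = 0.0166), and without control replicate 3 it was -0.86 (adjusted p = 0.0429). The difference between the effects of colistin with and without 7-HC was -0.92 on the log2 scale (limma interaction term, adjusted p = 0.365).

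Cry2 (chr2:92403646-92434085, minus strand) was at 11.07, 12.02 and 12.81 FPKM in control libraries 1, 2 and 3 and at 10.27, 13.70 and 13.02 FPKM in the 7-HC libraries. It was at 5.26, 10.04 and 6.34 FPKM in the colistin libraries and at 7.75, 9.37 and 10.94 FPKM in the colistin + 7-HC libraries. The colistin libraries lay below control without overlap. Cry2 fell by 0.74 (SE 0.21) on the log2 scale in colistin against control (limma, adjusted p = 0.0182), and its log2 fold change in colistin + 7-HC against 7-HC was -0.38 (adjusted p = 0.182). The first call was lost without control replicate 3 (-0.69, adjusted p = 0.0560), colistin replicate 1 (-0.55, 0.0762) or colistin replicate 3 (-0.68, 0.0604). The FPKM of Cry2 divided by that of Cry1 was 2.72, 2.58 and 4.58 in control, 2.58, 2.90 and 1.88 in 7-HC, 1.54, 5.26 and 4.14 in colistin and 6.68, 7.26 and 6.75 in colistin + 7-HC. This ratio is given as a description. It was highest in the 3 libraries of the combined treatment, which did not overlap with any other library. Cry2 shares 295 of 6320 exon bases with D930015M05Rik on the opposite strand, which is not in the table.

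**Figure D2:**
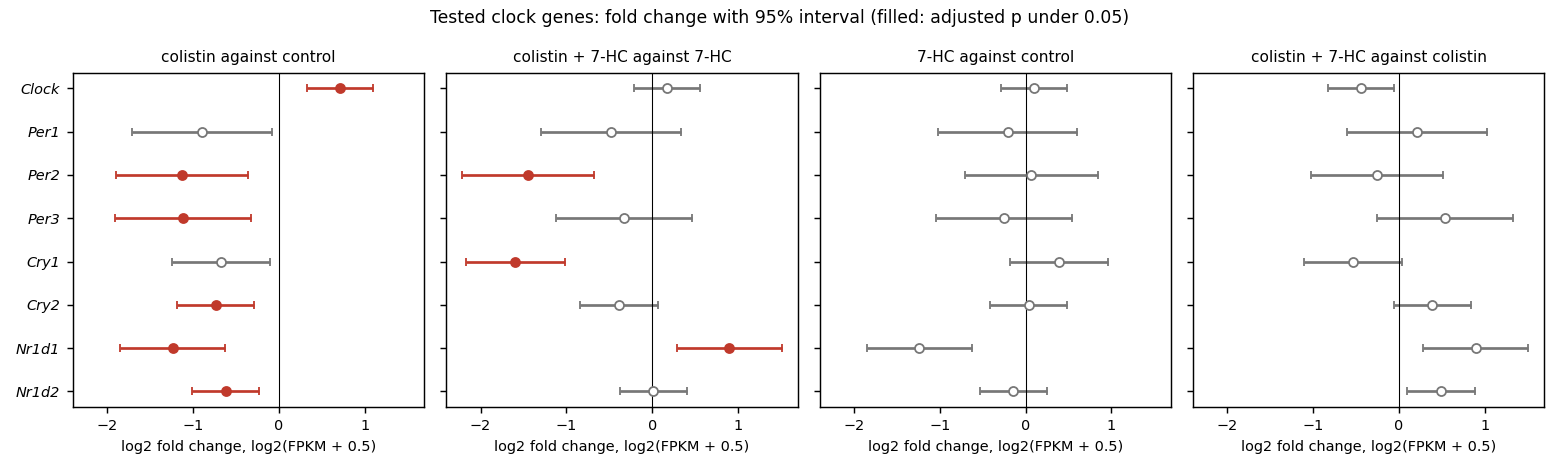
Log2 fold changes of the 8 tested members in 4 comparisons, on the log2(FPKM + 0.5) scale, with 95% intervals from the limma fit of 12 libraries. Filled red points passed an adjusted p under 0.05: 6 in colistin against control, 3 in colistin + 7-HC against 7-HC, and none in 7-HC against control or colistin + 7-HC against colistin.

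Nr1d1 (chr11:98767932-98775377, minus strand) encodes REV-ERB alpha, the main repressor of Arntl, and it was the most abundant member in control per length. It was at 37.73, 30.81 and 42.69 FPKM in control libraries 1, 2 and 3 and at 21.12, 12.35 and 13.65 FPKM in the 7-HC libraries. It was at 10.61, 17.41 and 19.43 FPKM in the colistin libraries and at 41.36, 24.19 and 24.04 FPKM in the colistin + 7-HC libraries. Either compound alone thus came with values below every control library, and the libraries given both lay above every library given 1 of them. The order of the group means was control (37.1 ± 5.97 FPKM), colistin + 7-HC (29.9 ± 9.96 FPKM), colistin (15.8 ± 4.62 FPKM) and 7-HC (15.7 ± 4.73 FPKM), with overlap between the first 2 and between the last 2.

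By limma, Nr1d1 fell by 1.23 (SE 0.28) on the log2 scale in colistin against control (adjusted p = 0.00603) and rose by 0.90 (SE 0.28) in colistin + 7-HC against 7-HC (adjusted p = 0.0308). The rise was not called without 7-HC replicate 2 (0.75, adjusted p = 0.104), 7-HC replicate 3 (0.82, 0.0891) or colistin + 7-HC replicate 1 (0.64, 0.118). The log2 fold change in 7-HC against control was -1.24 (SE 0.28), as large as that of colistin, but with an adjusted p of 0.167 and an unadjusted p of 0.000912. That in colistin + 7-HC against colistin was 0.89 (SE 0.28, adjusted p = 0.260). For each of these 4 pairs of groups, which did not overlap, an exact permutation test gave p = 0.1, the smallest it can give. The effect of colistin with 7-HC minus that without it was 2.13 on the log2 scale (limma interaction term, SE 0.39), with an unadjusted p of 0.000191 and an adjusted p of 0.0587. Without colistin replicate 2 it was 2.22, with an adjusted p of 0.0352.

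Nr1d1 overlaps the thyroid hormone receptor gene Thra on the opposite strand, with which it shares 263 of its 3077 exon bases, and whether the libraries kept strand is not given in the sources used here. Reads of the shared part therefore cannot be assigned to either gene with certainty. Thra was at 4.93, 5.58 and 6.41 FPKM in control, 4.59, 4.53 and 4.56 FPKM in 7-HC, 3.91, 4.67 and 3.76 FPKM in colistin and 4.89, 4.22 and 3.87 FPKM in colistin + 7-HC. Thra fell by 0.41 (SE 0.12) on the log2 scale in colistin against control (limma, adjusted p = 0.0252), less than Nr1d1, and its log2 fold change in colistin + 7-HC against 7-HC was -0.07.

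Nr1d2 (chr14:18204056-18239106, minus strand), which encodes REV-ERB beta, was at 22.18, 23.28 and 21.70 FPKM in control libraries 1, 2 and 3 and at 18.19, 19.78 and 23.00 FPKM in the 7-HC libraries. It was at 10.06, 17.06 and 17.35 FPKM in the colistin libraries and at 20.79, 21.11 and 19.42 FPKM in the colistin + 7-HC libraries. The colistin libraries were the lowest 3 of the 12. Nr1d2 fell by 0.62 (SE 0.18) on the log2 scale in colistin against control (limma, adjusted p = 0.0213). This call was lost without control replicate 1 (-0.62, adjusted p = 0.0540) or control replicate 2 (-0.59, 0.0627), and without colistin replicate 1 the fall was smaller (-0.37) but still called. The log2 fold change in colistin + 7-HC against colistin was 0.49 (adjusted p = 0.309), with no overlap, and that in 7-HC against control was -0.14 (adjusted p = 0.882), far smaller than that of Nr1d1.

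The FPKM of Nr1d1 divided by that of Arntl sets the repressor against the gene it acts on within each library. The ratio was 126, 88.0 and 122 in control libraries 1, 2 and 3, 32.5, 29.4 and 30.3 in 7-HC, 2.36, 23.8 and 11.6 in colistin and 70.1, 71.1 and 65.0 in colistin + 7-HC. No 2 groups overlapped in it, and the order was control, colistin + 7-HC, 7-HC and colistin. Outside the colistin group Arntl lay between 0.30 and 0.65 FPKM, below the filter, so small differences in its low values weigh on the ratio. The ratio was formed after the values were known and is given as a description, with no test.

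**Figure D3:**
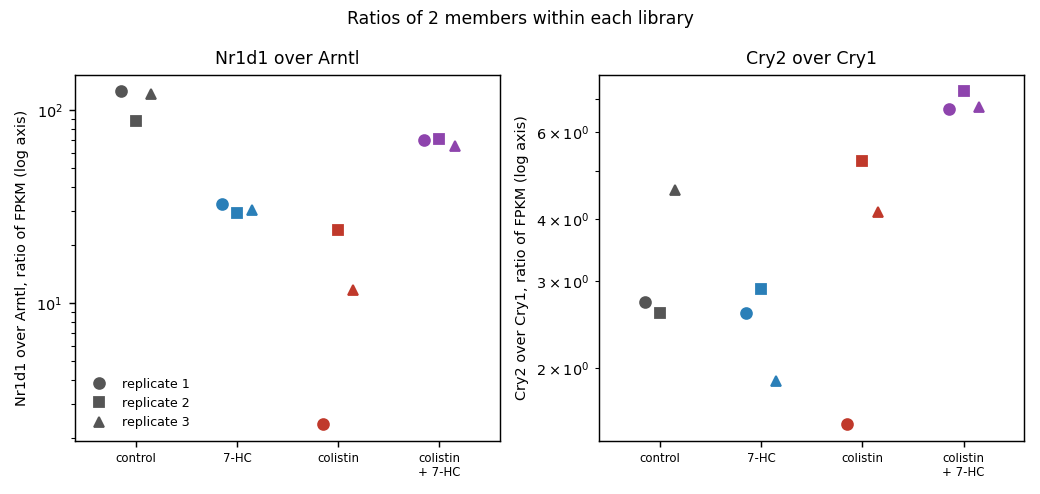
Ratios of FPKM within each of the 12 libraries, on log axes, for Nr1d1 over Arntl (left) and Cry2 over Cry1 (right), by group, with symbols for replicates 1 to 3. On the left the 4 groups do not overlap, from 88.0 to 126 in control down to 2.36 to 23.8 in colistin, with Arntl at only 0.30 to 0.65 FPKM outside the colistin group. On the right the colistin + 7-HC libraries, at 6.68 to 7.26, lie above all others.

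When 7-HC was given to both groups, in colistin + 7-HC against 7-HC, 3 of the 8 tested members were called, with Per2 and Cry1 lower and Nr1d1 higher. Of all genes, 31.1% were called in that comparison, 14.5% higher and 16.6% lower, and the median log2 fold change was -0.35 for the members and -0.01 for all genes. In colistin + 7-HC against control, 2 of 8 were called, Per2 and Cry1, both lower, beside 26.1% of all genes, 10.6% higher and 15.6% lower, a split that median-ratio scaling also brought closer to even (40.4% of the calls higher before and 49.0% after). This comparison shares the control libraries with colistin against control. In both comparisons the members' share of calls was close to that of all genes.

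None of the 8 members was called by limma in the other comparisons. In colistin + 7-HC against colistin, 3 members (Clock, Nr1d1 and Nr1d2) had an unadjusted p under 0.05, as did 1337 of all 10764 genes. After adjustment 1 gene, which is 0.00929% of all genes, was called there. In 7-HC against control, 1 member (Nr1d1) had an unadjusted p under 0.05, as did 1032 of all genes, and 0.167% of all genes were called. For the interaction, 3 members (Nr1d1, Cry1 and Nr1d2) had an unadjusted p under 0.05, as did 1243 of all genes, and 0.297% were called.

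Among the groups, the colistin libraries had the widest range in their distance from control. Colistin replicate 1 was the farthest from the control mean for 7 of the 10 members, and colistin replicate 2 the nearest for 6. The members include Npas2, at or below 0.09 FPKM throughout, for which colistin replicate 2 was the farthest. The mean absolute log2 difference from control over the 10 members was 1.30, 0.421 and 0.893 in colistin replicates 1, 2 and 3. It was 0.720, 0.465 and 0.400 in the colistin + 7-HC libraries and 0.291 to 0.333 in the 7-HC libraries. Over all 10764 genes the same measure was 0.615, 0.447 and 0.535 in the colistin libraries, so the order of these libraries was alike and their range narrower. Without colistin replicate 1, Clock, Cry1, Nr1d1 and Nr1d2 were called in colistin against control, and without colistin replicate 2, all tested members but Cry1.

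**Figure D4:**
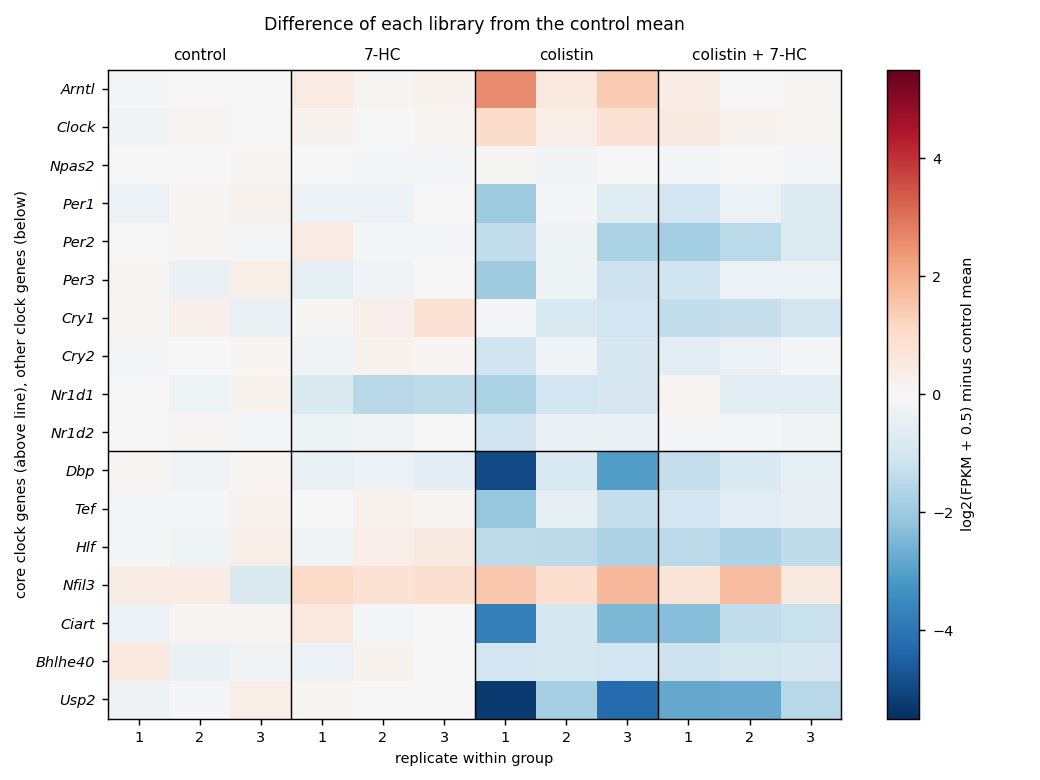
Difference of each library from the control mean, as log2(FPKM + 0.5), for the 10 core clock genes (above the line) and 7 other clock genes (below it), with 12 columns for replicates 1 to 3 of each group. Red is higher and blue lower than control; colistin replicates 1 and 3 hold the deepest colours, while replicate 2 is paler.

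Within groups, members were asked to deviate together across libraries. After the group means were removed, Pearson's r over the 12 libraries was -0.271 for Arntl with Nr1d1 (Spearman's rho 0.140), 0.679 for Arntl with Npas2 (0.479), -0.496 for Arntl with Per2 (-0.203) and 0.535 for Per2 with Per3 (0.510). No relation passed. Exact permutation of the libraries within groups gave p = 0.657, 0.153, 0.552 and 0.313 for r, and adjusted over the 4 pairs all were between 0.611 and 0.657, with 0.506 to 0.725 for rho. Without the 2 libraries farthest from the median, r was 0.711, 0.0508, 0.0564 and 0.0758, so the values rested on those libraries.

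Beyond the 10 members, 43 further genes of the clock were listed, and 40 were tested. In colistin against control 1 of these rose and 11 fell, with a median log2 fold change of -0.21. The 12 called of 40 are near the 32.7% of all genes. With 7-HC in both groups, 2 rose and 7 fell, a smaller share than the 31.1% of all genes. None rose and 7 fell in colistin + 7-HC against control, where 10.6% of all genes rose and 15.6% fell. The 7 of 40 that fell are near that share. None was called in the other comparisons, in which at most 0.297% of all genes were called. The 2 that rose in colistin + 7-HC against 7-HC, Timeless (0.53, limma adjusted p = 0.0200) and Tipin (0.71, adjusted p = 0.00591), encode partners in a complex of the DNA replication fork and are named here after their values were seen.

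Dbp, Tef and Hlf encode activators at D-boxes, and Dbp is a direct target of the CLOCK and BMAL1 pair. Dbp was at 103.3, 84.88 and 103.87 FPKM in control libraries 1, 2 and 3 and at 73.45, 76.98 and 64.10 FPKM in the 7-HC libraries. It was at 2.68, 53.68 and 11.08 FPKM in the colistin libraries and at 39.11, 54.02 and 67.14 FPKM in the colistin + 7-HC libraries. The spread among colistin libraries was wide, again with replicate 1 lowest and replicate 2 highest. All 4 genes of the list were called in colistin against control, beside 32.7% of all genes. By limma on the log2 scale, Dbp fell by 2.95 (SE 0.72, adjusted p = 0.00903), Hlf fell by 1.504 (SE 0.20, adjusted p = 0.000229) and Tef fell by 1.28 (SE 0.31, adjusted p = 0.00906). Nfil3, a repressor at the same element, rose by 1.39 (SE 0.37, adjusted p = 0.0136). With 7-HC in both groups only Hlf fell, by 1.73 (adjusted p = 0.000116), and the log2 fold change of Dbp was -0.45 (adjusted p = 0.667). The difference between these 2 effects of colistin was not called for any of the 4 genes.

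Both tested repressors at E-boxes fell in colistin against control, Ciart by 2.39 (SE 0.55, limma adjusted p = 0.00653) and Bhlhe40 by 1.04 (SE 0.21, adjusted p = 0.00320). Both also fell in colistin + 7-HC against 7-HC, by 1.78 (adjusted p = 0.0293) and 0.95 (adjusted p = 0.00583). The share of all genes that fell was 19.9% in the first comparison and 16.6% in the second. Ciart was at 27.68, 38.04 and 38.72 FPKM in control and at 2.09, 17.56 and 5.89 FPKM in colistin, with no overlap.

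Of 16 kinases, phosphatases and ligases that act on PER and CRY, 3 fell and none rose in colistin against control, with a median log2 fold change of -0.12. They were Usp2, a deubiquitinase with a strong daily rhythm (fell by 3.78, SE 0.67, limma adjusted p = 0.00155), the phosphatase Ppp5c (fell by 0.69, adjusted p = 0.00239) and the kinase subunit Csnk2a2 (fell by 0.46, adjusted p = 0.00759). Usp2 was at 32.50, 38.48 and 51.09 FPKM in control and at 0.54, 10.99 and 1.63 FPKM in colistin. Of 16 cofactors and metabolic inputs, 2 fell, the acetyltransferase Crebbp by 0.33 (adjusted p = 0.0493) and the methyltransferase subunit Wdr5 by 0.33 (adjusted p = 0.0384). The share of called genes in these 2 lists was below the 32.7% of all genes.

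Genes with a daily rhythm in liver were listed as outputs of the clock, and 15 of 16 were tested. In colistin against control 9 fell and none rose, with a median log2 fold change of -1.78. With 7-HC in both groups 10 fell, with a median of -1.47, and in colistin + 7-HC against control 8 fell. In the same order, 19.9%, 16.6% and 15.6% of all genes fell in these comparisons. The largest falls among those called in colistin against control were those of Upp2, a uridine phosphorylase (fell by 4.43, SE 0.83, limma adjusted p = 0.00204), Cyp7a1, the rate-limiting enzyme of bile acid synthesis (fell by 3.44, SE 0.91, adjusted p = 0.0136), Noct, a phosphatase (fell by 2.39, SE 0.70, adjusted p = 0.0225), and Wee1, a kinase that holds cells before mitosis (fell by 2.35, SE 0.38, adjusted p = 0.000894). Cyp7a1 was at 21.13, 27.43 and 56.99 FPKM in control, 0.83, 18.01 and 0.61 FPKM in colistin and 0.83, 0.79 and 2.75 FPKM in colistin + 7-HC. For this gene the libraries given both compounds lay near colistin replicates 1 and 3 and far below colistin replicate 2.

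Glucocorticoids, whose level follows the day and which induce Per1, act on 9 tested genes of a further list. In colistin against control Cdkn1a, a cell cycle inhibitor, rose by 2.71 (limma, adjusted p = 0.00652). Dusp1, a phosphatase, fell by 2.83 (adjusted p = 0.00253), Tsc22d3, which encodes GILZ, fell by 2.40 (adjusted p = 0.000206), Pck1, of gluconeogenesis, fell by 2.12 (adjusted p = 0.00821), and Klf9 also fell. Fkbp5 was higher by 0.37 (limma, adjusted p = 0.283) and Sgk1, Zbtb16 and Tat were lower in that comparison, and none of them was called. Beside these, 12.7% of all genes rose and 19.9% fell. With 7-HC in both groups, Dusp1, Tsc22d3 and Pck1 fell, beside 16.6% of all genes. The median log2 fold change of the list was -0.60 in both comparisons. Hormone levels are not part of these data.

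Markers of cell types moved between the same groups. Summed FPKM of the 10 hepatocyte markers was 83120 to 93785 in control, 95160 to 98485 in 7-HC, 47730 to 49628 in colistin and 51500 to 59489 in colistin + 7-HC, and in colistin against control 7 of the 10 fell and 1 rose. Alb was the largest part of this sum, at 45371 to 58259 FPKM in control and 17552 to 24957 FPKM in colistin. The sum of 6 neutrophil markers was 7.17 to 9.27, 7.22 to 9.32, 28.6 to 50.2 and 19.2 to 33.6 FPKM in the same order, and 3 of the 5 tested rose. For 6 macrophage markers the sums were 61.7 to 77.9, 42.7 to 52.0, 65.6 to 140 and 67.3 to 82.3 FPKM, with 2 rising (Marco and Lyz2) and 1 falling (Clec4f). Marco was at 3.57 to 4.95 FPKM in control and 28.40 to 74.45 FPKM in colistin. Clec4f was at 26.23 to 35.34 FPKM in control and 2.60 to 15.66 FPKM in colistin, so this sum hides opposite changes. Of 6 endothelial markers 1 rose and of 6 stellate and fibroblast markers none was called in that comparison, while 6 lymphocyte markers summed to at most 2.89 FPKM and were not tested. Beside these counts, 12.7% of all genes rose and 19.9% fell in colistin against control, and the endothelial count is near the first share. The part of the marker shifts in the clock results was not tested. Single hepatocyte markers also differed among the colistin libraries, but not in 1 shared order. Cps1 was at 64.56, 276.13 and 152.36 FPKM and Cyp2e1 at 614, 1380 and 1038 FPKM in replicates 1, 2 and 3. Fgb had the opposite order, at 14852, 7487 and 14148 FPKM. The sum of the 10 hepatocyte markers differed little among these libraries, at 48583, 49628 and 47730 FPKM.

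For Arntl, genes with the most similar course over the 12 libraries, by Pearson's r of log2 values, included Arf4 (0.95) and Gosr2 (0.94), and those with the most opposite course were Dbp (-0.97), Abcg8 (-0.97) and Mfsd4b1 (-0.95). These are descriptions over libraries that share their groups. Without colistin replicates 1 and 3, r was 0.58 and -0.02 for the first pair and -0.58, -0.81 and -0.60 for the others, so much of the likeness came from those 2 libraries. Arf4, a small GTPase of vesicle traffic, was at 51.87, 53.20 and 45.86 FPKM in control and at 125.93, 66.25 and 82.76 FPKM in colistin. For Nr1d1 the most similar were Prim2 (0.90), Wdr6 (0.88) and Hap1 (0.87), and the most opposite Lamb3 (-0.88), Prss36 (-0.86) and 2010003K11Rik (-0.84). Here r changed little without the same 2 libraries, to 0.89, 0.85 and 0.82 and to -0.88, -0.90 and -0.80. The 7-HC libraries, in which Nr1d1 was also low, stayed in, so this leaves much of the pattern in place. Hap1, at 0.29 to 1.10 FPKM, and Lamb3, at 0.49 to 1.36 FPKM, lie near the filter of 1 FPKM. Prim2, a primase subunit, was at 2.38, 2.35 and 2.83 FPKM in control, 1.89, 1.53 and 1.38 in 7-HC, 1.32, 1.60 and 1.54 in colistin and 2.37, 2.28 and 2.60 in colistin + 7-HC, so that it was lower with either compound alone, as Nr1d1 was. Prim2 was picked for its likeness to Nr1d1 in these same libraries, so this shared pattern follows from the choice and is not further evidence.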

How the data were processed

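Libraries labelled kidney, from 3 mice per group, were sequenced on the BGISEQ-500. According to the submitters' processing notes and the study's methods, reads were cleaned with SOAPnuke and mapped with HISAT2 2.0.4 (genome build GRCm38.p6) and Bowtie2 2.2.5 (coding genes), and RSEM 1.2.12 gave the expression levels. DESeq2 1.4.5 served the authors' own comparisons, which were not used here. No unit is named in the deposited table. As its entries are fractional and the column sums unequal, the values were treated as FPKM computed by the authors. Neither the number of reads nor strandedness is given in the sources used here, so depth is unknown and no counting interval could be formed. Of the 22899 genes, 5161 hold no value.

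One linear model per gene was fitted to log2(FPKM + 0.5) in limma 3.58.1 (R 4.3.3), using a mean-variance trend and 1 term for each group over the 12 libraries. The filter of 1 FPKM in 3 or more libraries left 10764 genes, and p-values were adjusted by Benjamini-Hochberg over them in each comparison. An exact two-sided permutation test of 3 against 3 libraries was added for single genes. The fit was tested on simulated data. Of 100 genes changed 2-fold, 76 were called in colistin against control, 75 in colistin + 7-HC against colistin and 52 in the interaction. For 4-fold changes these were 96, 96 and 89. A gene that differs can therefore go uncalled, most often in the interaction. The 10 genes, the lists and the tests were chosen with earlier results of these data known. The text names all 10 genes, at most 4 genes of each list (those called in colistin against control with the largest change), and the 3 tested genes with the highest and the 3 with the lowest correlation to Arntl and to Nr1d1. Alb, Fkbp5, Klf9, Sgk1, Tat, Timeless, Tipin and Zbtb16 are named beyond this rule, after their values were seen. Of the genes the rule takes, 2 are not reported here. Alternatives were no filter, 1 FPKM in every library, pseudocounts of 0.1 and 1, median-ratio scaling, a fit of the compared groups alone, the replicate number as a block, and each library left out. Promoter sequences came from RefSeq (GRCm38.p6), without an entry for Per2. Gene positions and overlaps are on GRCm38.p6. Figures were made in Python 3.11.15 with matplotlib 3.10.9.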

Additional observations from a re-analysis of the deposited data

Results flagged for a closer look

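Nr1d1 lay on opposite sides of its comparison group in colistin-treated mice with and without 7-HC. Its log2 fold change was -1.23 in colistin against control and 0.90 in colistin + 7-HC against 7-HC, with no overlap between groups in either, and the difference of 2.13 had an adjusted p of 0.0587 by the limma interaction term, which misses the threshold. A member was flagged if its interaction was called, or if neither pair of groups overlapped and the fold changes had opposite signs. Nr1d1 was taken by this rule from the 10 members, so the lack of overlap is part of the rule and is not further evidence. The hour of sampling and the DMSO vehicle cannot be told apart from the groups.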

How the results depend on the processing

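Depth is unknown, and each group has 3 libraries, so the values below are limited by their number. For colistin against control, 6 members were called, 2 (Clock and Nr1d1) when only the groups compared were fitted, and 3 to 7 when a library was left out, with 3 without control replicate 1 or colistin replicate 3. The count ranged from 2 to 3 for colistin + 7-HC against 7-HC, from 1 to 3 for colistin + 7-HC against control, from 0 to 1 for the interaction, and stayed at 0 to 0 for colistin + 7-HC against colistin and for 7-HC against control. With no filter, Per2 (adjusted p = 0.0549) and Per3 (0.0623) in colistin against control and Nr1d1 (0.0537) in colistin + 7-HC against 7-HC were not called. Of 18 same-numbered pairs of libraries, 2 had a residual correlation over 0.1. Pairs of different number were not computed, so whether replicate numbers pair the samples cannot be decided from this. With the replicate number as a block, 7 members were called in colistin against control, Per1 being added (adjusted p = 0.0385), and the other counts of members did not change. Log2 fold changes that were called in no setting changed sign when a library was left out, with these ranges: Nr1d2 in colistin + 7-HC against 7-HC (-0.061 to 0.10), Per1 (-0.31 without colistin replicate 1, to 0.61) and Per2 (-0.56 to 0.18, the latter without colistin replicate 2) in colistin + 7-HC against colistin, Per2 (-0.11 without 7-HC replicate 1, to 0.17) and Cry2 (-0.045 to 0.15) in 7-HC against control, and Per1 (-0.10 without colistin replicate 1, to 0.82) and Per2 (-0.63 to 0.11, the latter without colistin replicate 2) in the interaction. Of 904 values of single members under an alternative, 860 kept their direction and their side of the threshold, 26 lost a call and 7 gained one. Most of the 904 belong to a member and comparison not called in the main fit, and had no call to lose. Leaving out a library of a group not compared also leaves the fold change as it was. The 860 is therefore no measure of how stable the calls were. Over all genes, the count for colistin + 7-HC against colistin was 1, with 0 to 472 when a library was left out (472 without colistin replicate 2), that for 7-HC against control was 18, with 8 under the block, 11 at 1 FPKM or more in every library, 0 when only those groups were fitted and 4 to 61 when a library was left out (4 without 7-HC replicate 2, 61 without control replicate 3), and that for the interaction was 32, with 6 without a filter, 5 at a pseudocount of 0.1, 0 under the block and 0 to 136 when a library was left out (136 without colistin replicate 2). For colistin + 7-HC against control it was 2812, and 1768 to 3082 when a library was left out (1768 without colistin + 7-HC replicate 2). Median-ratio scaling changed no call of a member, and for the interaction moved the share of higher calls over all genes from 53.1% to 41.7%. This share went from 38.9% to 48.5% in colistin against control and from 40.4% to 49.0% in colistin + 7-HC against control. The cause of these changes was not tested.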
